A study of Mus musculus with 6 samples.

Results

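The genes described here encode the proteins of the cytosolic ribosome, measured by RNA sequencing in mouse brown adipose tissue. They were chosen by name: rows whose symbol begins with Rpl or Rps and a digit, without the Rps6k kinases and the named pseudogenes, plus Rplp0, Rplp1, Rplp2 and Rpsa. The rule found 84 of the 12966 genes listed. No measured value entered the rule, although the deposited listing may itself have been filtered on a BKO library. The tissue came from 10 week old male C57BL/6J mice that all carried floxed Bscl2 alleles (Bscl2 f/f). In the BKO group (3 libraries) a Cre recombinase driven by the Ucp1 promoter, which is active in brown adipocytes, was also present, and the Ctrl group (3 libraries) had the floxed alleles alone. Bscl2 encodes seipin, an endoplasmic reticulum protein needed for normal lipid droplets. Values are FPKM, which scale the fragments of a gene by its transcript length and by the size of the library, so levels of different genes can be compared.

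Cytosolic ribosomes translate nuclear mRNAs, and each is built from a large and a small subunit whose proteins are made in matched amounts. Ribosomal protein mRNAs are short and abundant, and most begin with a run of pyrimidines, the terminal oligopyrimidine (TOP) motif, through which mTORC1 and the RNA-binding protein Larp1 control their translation. Their mRNA level and their translation are therefore separate quantities, and RNA sequencing reports the level alone.

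Of the 84 genes, 45 encode large subunit proteins and 31 small subunit proteins, together 76 standard subunits. The other 8 matched by symbol: the paralogs Rpl3l, Rpl7l1, Rpl22l1, Rpl36al, Rpl39l, Rps27l and Rps4y2 (Rps4l in RefSeq), and Rps19bp1, which encodes a nucleolar protein that binds Rps19 and is no ribosomal protein. The name of the set therefore does not hold for Rps19bp1. None was listed at 0 in any library, and all 84 averaged 1 FPKM or more, the limit for testing. Processed pseudogenes named after the parent gene exist in GENCODE vM21 for 60 of the 84, with 24 each for Rpl31 and Rps12. Reads could be split between such copies, so the levels of these genes are uncertain in absolute terms.

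The start regions of the genes with the largest differences between the groups are shown because the pyrimidine start is what this mRNA family is known for. RefSeq (GRCm38.p6) start windows were found for 63 of the 84 genes, each from 25 bases before to 25 bases after the annotated start. Where the table gave several starts, the first listed is printed. Sequences run 5′ to 3′ on the gene's strand, and capitals mark CTTTC, a short run of pyrimidines, or its reverse complement GAAAG. Marks were placed anywhere in the window, and in Rpl39l and Rps15a CTTTC lies before the annotated start. A mark therefore does not show that the mRNA begins with pyrimidines. The first 5 had the largest positive differences, Rpl15 and Rps15a were among the 5 negative ones, and Rpl3l is the muscle paralog.
Rpl39l, chr16:10170203-10170252, plus strand: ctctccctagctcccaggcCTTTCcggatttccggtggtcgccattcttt
Rpl36al, chr12:69184043-69184092, minus strand: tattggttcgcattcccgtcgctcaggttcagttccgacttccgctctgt
Rps21, chr2:180257354-180257403, plus strand: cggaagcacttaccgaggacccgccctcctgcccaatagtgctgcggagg
Rpl38, chr11:114668555-114668604, plus strand: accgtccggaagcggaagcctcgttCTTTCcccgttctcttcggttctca
Rpl10, chrX:74270791-74270840, plus strand: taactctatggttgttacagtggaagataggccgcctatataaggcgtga
Rpl15, chr14:18270962-18271011, minus strand: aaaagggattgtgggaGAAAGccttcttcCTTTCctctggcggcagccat
Rps15a, chr7:118116123-118116172, minus strand: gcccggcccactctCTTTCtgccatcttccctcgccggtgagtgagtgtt
Rpl3l, chr17:24727801-24727850, plus strand: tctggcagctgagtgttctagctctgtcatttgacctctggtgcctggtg

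CTTTC on the gene's strand occurred in a start window of 18 of the 63 genes (28.6%), against 7.87% of 27025 RefSeq genes with windows of the same length. A gene with several starts counted if any of its windows held the motif. GAAAG occurred in 7 (11.1%), against 7.07% of all genes, and CTTTC on either strand in 24 (38.1%), against 14.4%. A second motif, CCGGAAG, which is the core bound by ETS factors, occurred in 8 genes (12.7%) against 2.002% of all genes. Its reverse complement CTTCCGG occurred in 2 (3.17%) against 1.97%. Either strand of this motif was found in 10 of the 63 genes (15.9%) and in 3.81% of all genes. The motifs can share at most 1 base with each other. Genes with and without CTTTC on their strand had the same median log2 difference between BKO and Ctrl, 0.11 for 18 genes and 0.11 for 45 genes. Among the printed windows, CTTTC stood in Rpl39l and Rpl38, with positive differences, and in Rpl15 and Rps15a, with negative ones. It was absent from the printed windows of Rpl36al, Rps21 and Rpl10, with positive differences. The windows of Rpl7l1, Rpl9 and Rpl31, the negative genes not printed, also lacked CTTTC on the gene's strand. A match is a description of letters in the window.

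Some facts of the libraries bear on every value below. Bscl2 averaged 17.4 ± 1.32 FPKM in BKO and 109 ± 6.05 FPKM in Ctrl (SD, n = 3 each), 16.0% of the Ctrl level (limma with Benjamini-Hochberg adjusted p = 3.95e-05), so the labels held. Brown adipocyte identity was present, with Ucp1 at 2966 ± 19.7 FPKM in BKO and 2851 ± 562 FPKM in Ctrl. Only BKO carried the Cre, and its effect cannot be told apart from that of Bscl2 loss. The labels do not state separate animals for the libraries, so p-values reflect only how these samples vary, and that variation may be technical. Read numbers are unknown. Skeletal muscle markers were highest in Ctrl-1 and BKO-2: the summed level of 17 listed markers ranged from 259 to 595 FPKM in BKO and from 210 to 853 FPKM in Ctrl. Macrophage markers were higher in BKO, where the sum of 21 listed markers ranged from 211 to 281 FPKM, against 71.8 to 119 FPKM in Ctrl. None of these markers was at 0 in all libraries. In bulk tissue, a change in the share of a cell type and a change in RNA per cell cannot be told apart.

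The ribosomal protein mRNAs were among the more abundant in the tissue. All 76 standard subunits lay in the top 10% of the 11397 tested genes, at ranks 100 to 994 by mean FPKM over the 6 libraries. Their means ran from 58.9 FPKM (Rpl15) to 715 FPKM (Rps29), a 12.1-fold span around a median of 182 FPKM, against a median of 7.47 FPKM over all tested genes. Large subunit mRNAs had a median level of 167 FPKM and small subunit mRNAs 193 FPKM. Shorter reading frames had higher values: the median level was 197 FPKM for 41 genes with a coding length under 450 nt and 142 FPKM for 42 genes at or above it. Across the 83 genes with a coding length, Spearman's rho between length and level was -0.27. Genes are not independent replicates, and FPKM estimates of very short transcripts depend on the length correction, so this is a description.

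**Figure D1:**
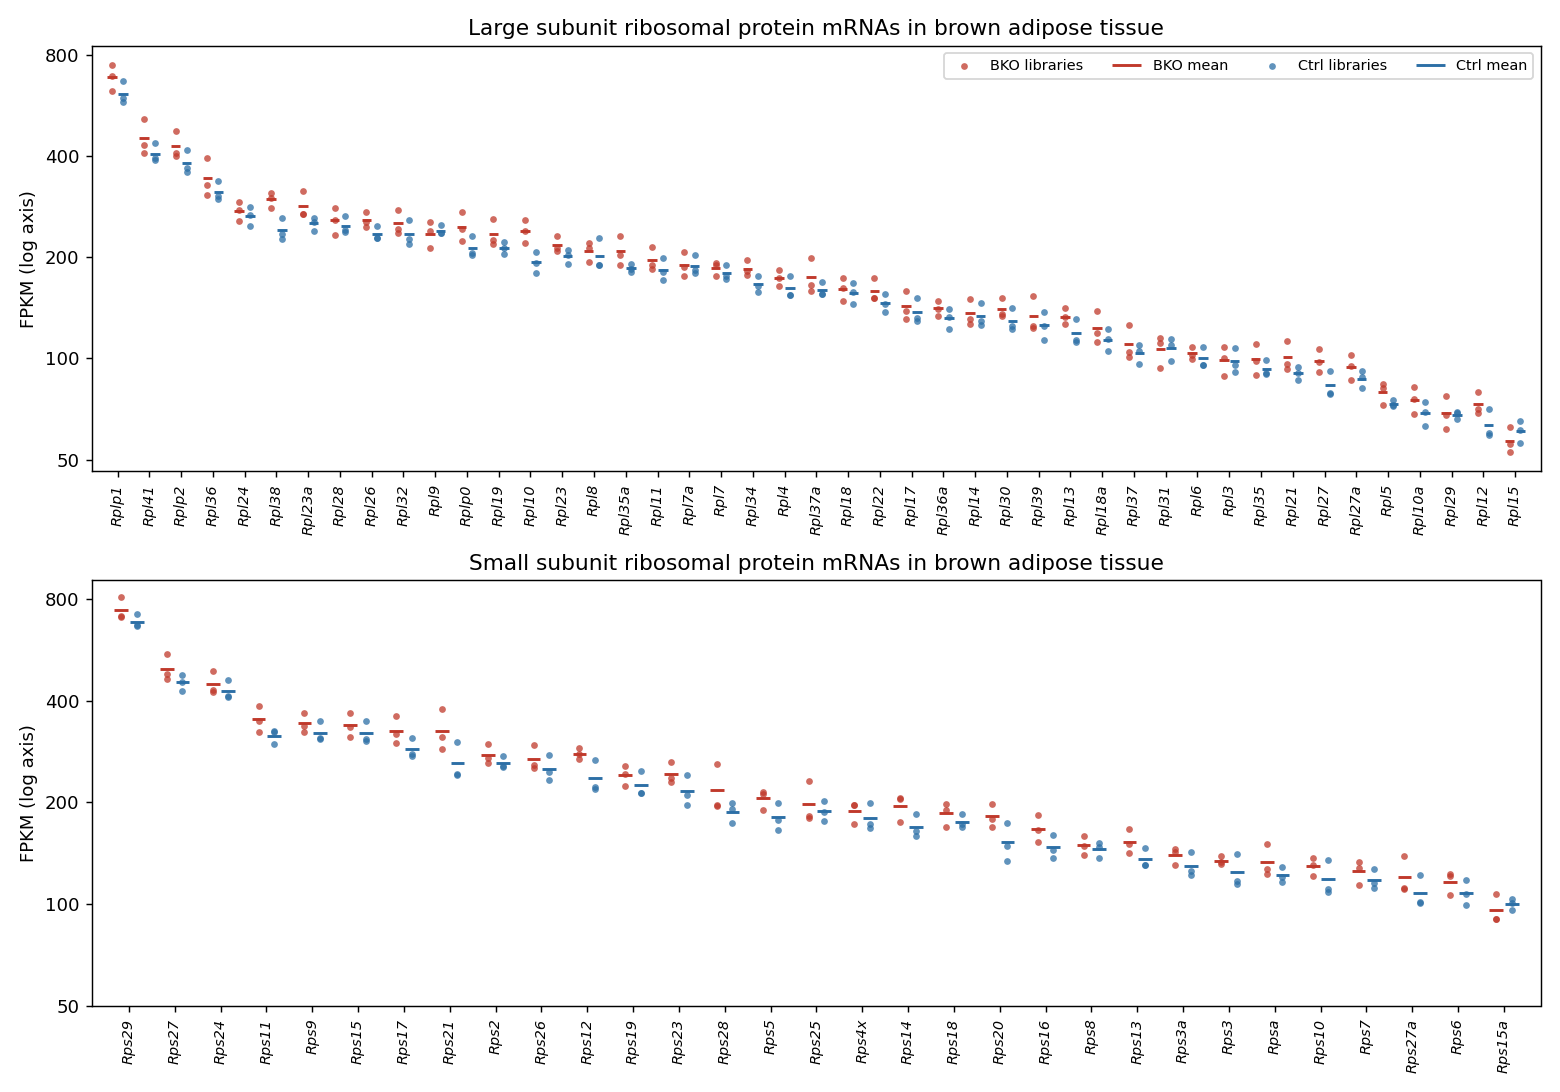
FPKM of each ribosomal protein mRNA (log axis) in the 3 BKO and 3 Ctrl libraries, large and small subunit in separate panels and ordered by level. Libraries of a gene lie close together compared with the 12.1-fold span between genes, which runs from 58.9 FPKM for Rpl15 to 715 FPKM for Rps29.

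The most abundant members were Rps29, Rplp1, Rps27, Rps24, Rpl41 and Rplp2. Rps29, a small zinc-binding protein of the small subunit, had 713, 814 and 707 FPKM in BKO-1 to BKO-3, against 724, 668 and 665 FPKM in Ctrl-1 to Ctrl-3. BKO-2 was highest, and the groups overlapped because Ctrl-1 exceeded BKO-1 and BKO-3. The means were 744 ± 59.96 FPKM in BKO and 685 ± 33.0 FPKM in Ctrl (SD, n = 3 each), a log2 difference of 0.12 (limma adjusted p = 0.696).

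The stalk of the large subunit, where elongation factors dock, is made of Rplp1 and Rplp2 on the base protein Rplp0. Rplp1 had 693, 746 and 627 FPKM in BKO, against 669.5, 594 and 581 FPKM in Ctrl. Rplp2 had 400.3, 476 and 408 FPKM in BKO, against 417, 358 and 369.9 FPKM in Ctrl. Rplp0 had 224, 272 and 242 FPKM in BKO, against 231, 205 and 203 FPKM in Ctrl. In all 3 stalk mRNAs BKO-2 was the highest library and Ctrl-1 lay above at least 1 BKO library, so the groups overlapped. The log2 differences were 0.16 (95% interval -0.06 to 0.39, limma adjusted p = 0.624) for Rplp1, 0.16 (-0.07 to 0.39, adjusted p = 0.626) for Rplp2 and 0.20 (-0.02 to 0.43, adjusted p = 0.527) for Rplp0. The 2 acidic proteins Rplp1 and Rplp2 are found in the ribosome in equal copies, while the mRNA of Rplp1 averaged 689 ± 59.9 FPKM in BKO and 615 ± 47.8 FPKM in Ctrl and that of Rplp2 428 ± 41.7 FPKM in BKO and 382 ± 30.9 FPKM in Ctrl.

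Rps27, a zinc-finger protein of the small subunit, had 463, 549.7 and 479 FPKM in BKO, against 478, 429 and 455 FPKM in Ctrl. Rpl41, a very short peptide with a reading frame of 75 nt, had 432, 517 and 408 FPKM in BKO, against 437, 396 and 389 FPKM in Ctrl. Rps24, a small subunit protein that is mutated in some human Diamond-Blackfan anaemia, had 424, 490.4 and 429.6 FPKM in BKO, against 459, 409.8 and 414 FPKM in Ctrl. BKO-2 was again the highest of the 6 libraries for each, and Ctrl-1 the highest of Ctrl. None passed the test: the log2 differences were 0.13 for Rps27, 0.14 for Rpl41 and 0.07 for Rps24 (limma adjusted p = 0.682, 0.696 and 0.854 in that order).

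Setting BKO against Ctrl asks what the loss of seipin from brown adipocytes does to the mRNAs of the tissue. No ribosomal protein mRNA passed the adjusted threshold of 0.05 in either direction, and the smallest adjusted p was 0.284, for Rpl38 (limma with Benjamini-Hochberg adjustment over all 11397 genes). Over all tested genes 18 were called higher in BKO (0.158%) and 1 lower (0.00877%), 19 in either direction (0.167%). Without adjustment, 8 of 84 had p below 0.05 and a positive difference (9.52%), against 6.63% of all tested genes, and 0 had a negative one, against 3.52%. The 8 were Rpl38, Rpl10, Rpl36al, Rpl27, Rps12, Rpl39l, Rps21 and Rps20. All 3 BKO libraries lay above all 3 Ctrl libraries in 6 genes (7.14%), close to the 9.06% over all tested genes, and below them in 0, against 6.82%.

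The differences were small and mostly of the same sign. The log2 difference was positive in 79 of the 84 genes (94%) with the FPKM as deposited, against 51.6% of all tested genes, and in 13 of 84 when each library was scaled to the same total, where the median of all tested genes lay at -0.15. The median was 0.11 with quartiles of 0.07 and 0.16, against 0.01 for all tested genes with quartiles of -0.08 and 0.11. It stood 0.105 above the median of all genes as deposited and 0.0686 above it after scaling to the same total. Mitochondrial tRNA genes held 45.1% to 74.4% of that total in BKO and 53.3% to 64.5% in Ctrl. The total was 2.81e+06 FPKM in BKO-3, against 1.38e+06 FPKM in BKO-1, 1.12e+06 FPKM in BKO-2 and 1.20e+06 to 1.62e+06 FPKM in Ctrl. Scaling to it raised the standard error of Rps29 from 0.0861 to 0.512. Large subunit genes were positive in 42 of 45 with a median of 0.11, small subunit genes in 30 of 31 with a median of 0.12, and the 8 other rows in 7 with a median of 0.10. The genes share libraries and move together, so their number does not count as independent evidence.

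Summed over the 84 genes, the level was 15612, 18067 and 15968 FPKM in BKO-1 to BKO-3, against 16300.2, 14450.3 and 14706 FPKM in Ctrl-1 to Ctrl-3. The groups overlapped, since Ctrl-1 exceeded BKO-1 and BKO-3. The means were 16549 ± 1326 FPKM in BKO and 15152 ± 1002 FPKM in Ctrl (SD, n = 3 each), a ratio of 1.09, and the difference was about the size of the spread within a group. As a share of the summed FPKM without mitochondrial genes, the family held 4.002%, 4.38% and 3.07% in BKO, against 3.94%, 3.72% and 3.80% in Ctrl. BKO-3 was the lowest and BKO-2 the highest on this measure, and the means were 3.82% ± 0.676 in BKO and 3.82% ± 0.112 in Ctrl (SD, n = 3 each), a ratio of 0.998. The large subunit sum was 8669 ± 695 FPKM in BKO and 7974 ± 500 FPKM in Ctrl, and the small subunit sum 7522 ± 605 FPKM in BKO and 6860 ± 491 FPKM in Ctrl. The ratio of small to large subunit sums was 0.860, 0.866 and 0.877 in BKO, against 0.868, 0.853 and 0.859 in Ctrl. This ratio varied far less between libraries than either sum, and the groups overlapped.

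**Figure D2:**
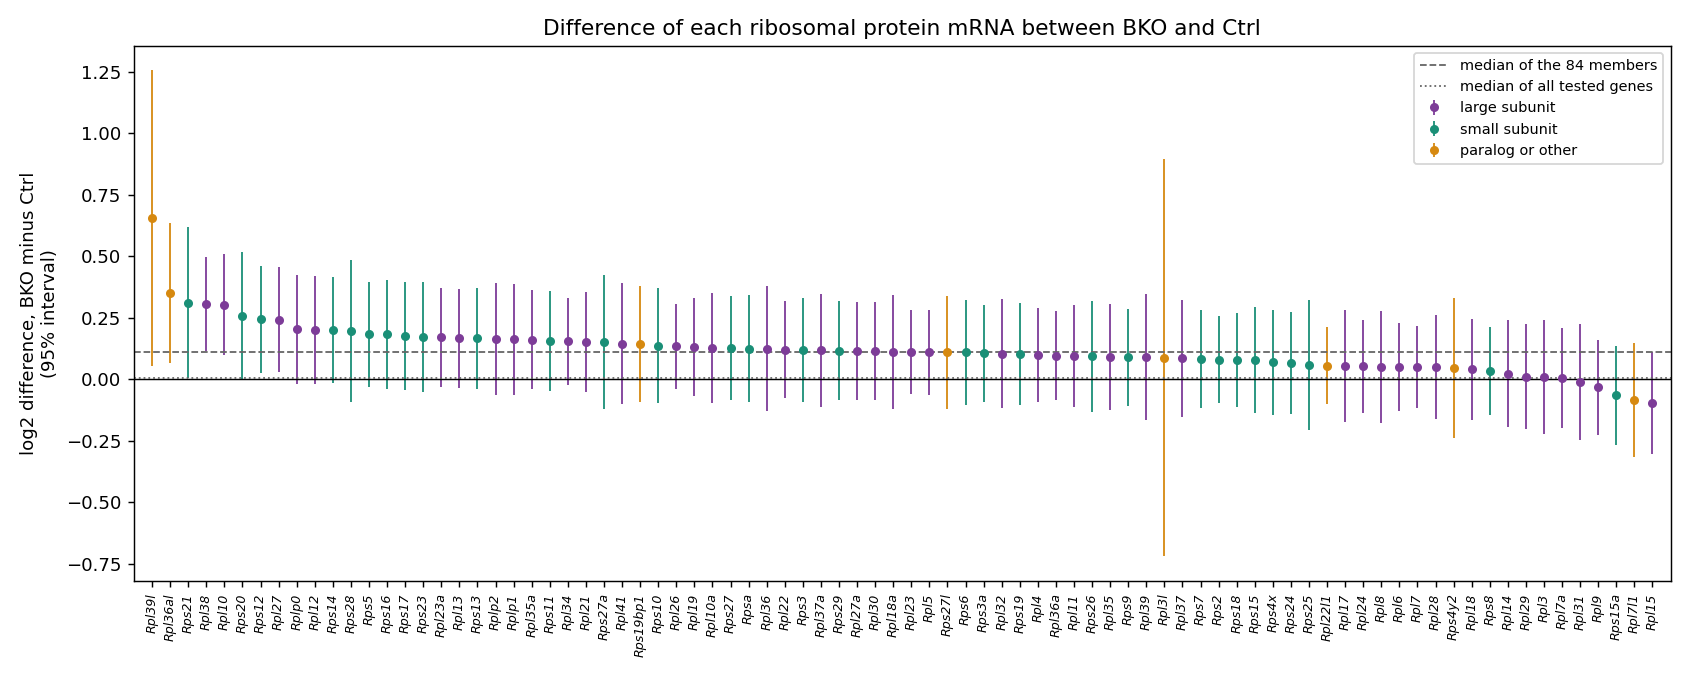
Log2 difference of each ribosomal protein mRNA, BKO minus Ctrl, with its 95% interval from limma, coloured by subunit. With the FPKM as deposited 79 of 84 points lie above 0. When each library is scaled to the same total, 13 of 84 differences are positive, with far larger standard errors (0.512 for Rps29, against 0.0861 as deposited). None passed the adjusted threshold in either case.

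The spread between libraries was shared by nearly the whole family. BKO-2 was the highest of the 6 libraries for 72 of the 84 genes (85.7%), against 22.4% of all tested genes. Ctrl-2 was the lowest for 43 (51.2%), against 16.8% of all tested genes, and Ctrl-3 for 27 (32.1%), against 25.7%. The median deviation of the family from each gene's own mean, on the log2(FPKM + 1) scale, was -0.03, 0.18 and 0.02 in BKO-1 to BKO-3, against 0.05, -0.12 and -0.10 in Ctrl-1 to Ctrl-3. Over all tested genes the same medians were -0.01, 0.02 and 0.01 in BKO and 0.04, -0.02 and -0.03 in Ctrl. The fold between the highest and the lowest library of a standard subunit ran from 1.11 to 1.57 with a median of 1.26. BKO-2 and Ctrl-1 also had the highest skeletal muscle markers. The muscle marker score, the mean log2(FPKM + 1) of the markers, averaged 3.97 ± 0.621 in BKO and 3.97 ± 1.11 in Ctrl (SD, n = 3 each). With group means this close, adding the score as a covariate could hardly move the difference between the groups. The family's median log2 difference between BKO and Ctrl was 0.112 in that fit. There 16 members had an unadjusted limma p below 0.05, against 8 in the fit without the score. The part of those markers in the spread between libraries was not tested. Ckm, the muscle creatine kinase, had 13.5, 32.4 and 10.2 FPKM in BKO, against 52.7, 8.83 and 12.98 FPKM in Ctrl.

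The family's difference depended on these libraries. Without BKO-2 the median log2 difference was 0.05, against 0.002 for all tested genes, while without Ctrl-1 it was 0.16, against 0.028. Without both of them it was 0.10, against 0.025 for all tested genes. The family's median stood above that of all genes by 0.0502 without BKO-2, 0.135 without Ctrl-1 and 0.0729 without both. With all libraries it stood 0.105 above. No gene of the family passed the adjusted threshold in any of these fits.

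**Figure D3:**
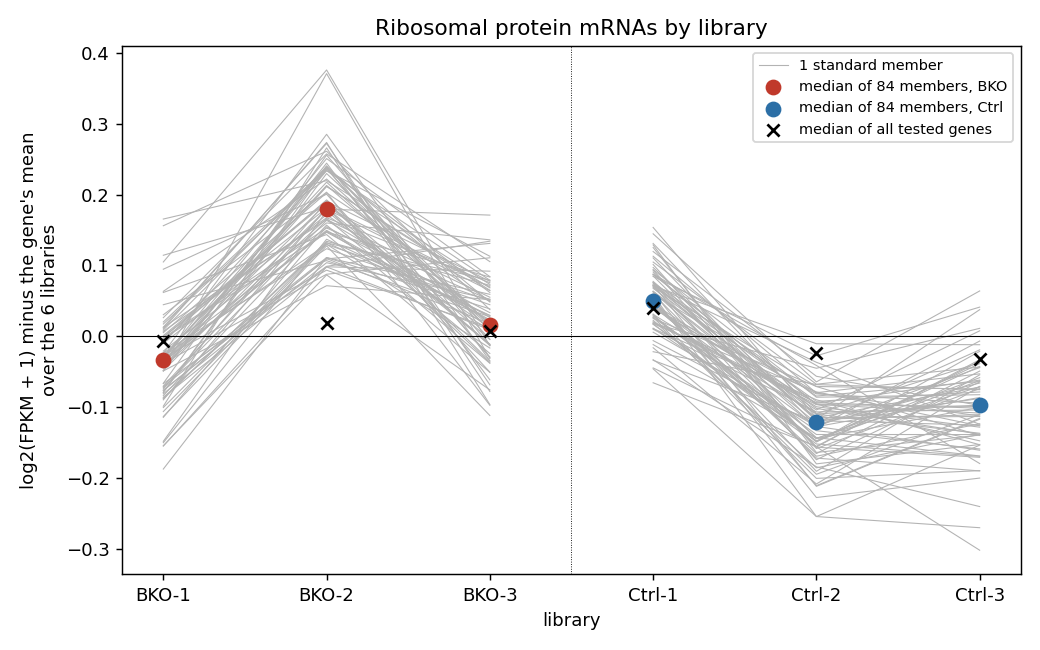
Deviation of each ribosomal protein mRNA from its own mean over the 6 libraries, log2(FPKM + 1), for the 3 BKO and the 3 Ctrl libraries. The family's median is 0.18 in BKO-2 and between -0.12 and 0.05 in the Ctrl libraries.

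Among the standard subunits the largest positive differences were those of Rps21, Rpl38 and Rpl10. Rpl38, a large subunit protein whose loss in mice alters the axial skeleton, had 300.0, 311 and 281 FPKM in BKO, against 261, 235 and 226 FPKM in Ctrl. Every BKO library lay above every Ctrl library. The means were 298 ± 15.2 FPKM in BKO and 241 ± 18.2 FPKM in Ctrl (SD, n = 3 each), a ratio of 1.24 and a log2 difference of 0.31 (SE 0.0809, 95% interval 0.12 to 0.50, limma unadjusted p = 0.00641, adjusted p = 0.284). Its difference lay between 0.26 and 0.37 when each library was left out in turn. It was 0.11 after scaling to the same total, with a far larger SE of 0.518. After scaling to the same summed ribosomal protein level, which removes the family's shared difference, it was 0.18.

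Rpl10, which joins the large subunit late in its assembly, had 239, 258 and 220.4 FPKM in BKO, against 208, 179.8 and 193 FPKM in Ctrl. Again the groups did not overlap. The means were 239 ± 18.6 FPKM in BKO and 194 ± 14.1 FPKM in Ctrl, a log2 difference of 0.30 (SE 0.0873, limma adjusted p = 0.320). Rps21, a protein of the small subunit, had 312, 377 and 288 FPKM in BKO, against 302, 243 and 241 FPKM in Ctrl. Here Ctrl-1 exceeded BKO-3, and the log2 difference was 0.31 (SE 0.130, limma adjusted p = 0.485).

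The other standard subunits whose groups did not overlap were Rpl23a, Rpl34 and Rps12. Rpl23a, which sits at the exit of the peptide tunnel, had 269, 316 and 269 FPKM in BKO, against 256, 240.2 and 261 FPKM in Ctrl. Rps12, of the small subunit, had 277, 291 and 269 FPKM in BKO, against 268, 219 and 223 FPKM in Ctrl. For Rpl34, of the large subunit, the lowest BKO library and the highest Ctrl library were nearly equal, at 176.7 FPKM in BKO-1 and 176.5 FPKM in Ctrl-1. Adjusted p was 0.564 for Rpl23a, 0.440 for Rps12 and 0.546 for Rpl34 (limma). The remaining genes with an unadjusted p below 0.05 were Rpl27, with 98.5 ± 7.52 FPKM in BKO and 83.2 ± 7.66 FPKM in Ctrl, and Rps20, with 182 ± 15.1 FPKM in BKO and 152 ± 20.1 FPKM in Ctrl (limma adjusted p = 0.438 and 0.491).

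In 5 genes the difference was negative, and none of them passed the test. Rpl15, the standard subunit with the lowest level, had 52.6, 62.4 and 55.6 FPKM in BKO, against 65.0, 56.1 and 61.4 FPKM in Ctrl. Rps15a, of the small subunit, had 90.4, 107 and 90.4 FPKM in BKO, against 104, 96.0 and 101 FPKM in Ctrl. In both genes BKO-2 was the highest BKO library and the groups overlapped. The log2 differences were -0.10 (95% interval -0.31 to 0.11) for Rpl15 and -0.07 (-0.26 to 0.13) for Rps15a. Rpl9 had 213, 254 and 239 FPKM in BKO, against 249, 236 and 236 FPKM in Ctrl, and Rpl31 had 93.4, 115 and 111 FPKM in BKO, against 114, 98.1 and 109 FPKM in Ctrl. Their differences of -0.03 and -0.01 changed sign when single libraries were left out. The fifth, Rpl7l1, is described with the paralogs.

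Each gene was also set against the median of the family in the same library. On this scale the differences ran from -0.21 for Rpl15 to 0.54 for Rpl39l (log2, BKO minus Ctrl), a wider range than the family's median difference of 0.11. In single libraries Rpl15 stood at -0.12, -0.09 and -0.09 in BKO, against 0.09, 0.06 and 0.16 in Ctrl (log2). Rpl38 stood at 0.20, 0.04 and 0.06 in BKO, against -0.08, -0.06 and -0.14 in Ctrl. For both genes the groups did not overlap on this scale. That was not particular to Rpl15 and Rpl38: the groups of Rpl10, Rpl27, Rpl7a, Rps15a and Rpl9, among others, did not overlap either. Rps21 stood at 0.14, 0.20 and -0.03 in BKO, against 0.01, -0.13 and -0.17 in Ctrl, so its groups overlapped. Rpl15, Rpl38 and Rps21 were picked by their differences, and the values carry no test.

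Several members also act outside the ribosome or have been linked to its failure, and none of those followed here passed the test. Rps6, the small subunit protein phosphorylated by S6 kinases downstream of mTORC1, had 106, 121 and 123 FPKM in BKO, against 118, 99.1 and 107 FPKM in Ctrl. Rps19, the gene most often mutated in human Diamond-Blackfan anaemia, had 242, 257 and 224 FPKM in BKO, against 247, 214 and 213 FPKM in Ctrl. Rpsa, also known as the laminin receptor precursor, had 123, 150.4 and 127 FPKM in BKO, against 129, 120.4 and 116 FPKM in Ctrl. The groups overlapped in all 3, since Ctrl-1 exceeded at least 1 BKO library. The log2 differences were 0.11 for Rps6 (95% interval -0.11 to 0.32), 0.10 for Rps19 (-0.11 to 0.31) and 0.13 for Rpsa (-0.09 to 0.34), with limma adjusted p of 0.739, 0.750 and 0.696.

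Rpl5 and Rpl11 form a complex with the 5S ribosomal RNA that binds Mdm2 and so stabilises p53 when ribosome assembly fails. Rpl5 had 72.8, 81.8 and 83.8 FPKM in BKO, against 75.1, 72.7 and 72.4 FPKM in Ctrl. Rpl11 had 189, 215 and 185 FPKM in BKO, against 199, 180.3 and 172 FPKM in Ctrl. BKO-1 lay within the range of the Ctrl values for both, so the groups overlapped, and the log2 differences were 0.11 for Rpl5 and 0.09 for Rpl11 (limma adjusted p = 0.662 and 0.773). The mRNA of Rpl11 was the more abundant in every library, although the complex holds the proteins in equal copies.

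The paralogs spanned a wide range beside their standard partners. Rpl36al averaged 65.6% of the level of Rpl36a over the 6 libraries, Rps27l 35.6% of Rps27, Rpl22l1 16.8% of Rpl22, Rps4y2 11.2% of Rps4x and Rpl7l1 10.3% of Rpl7. Rpl39l, which is mainly a testis gene, stood at 2.06% of Rpl39, and Rpl3l, a gene of striated muscle, at 1.38% of Rpl3. Rps19bp1 was at 4.37% of Rps19, the protein its product binds. Rpl36al and Rpl36a encode nearly the same protein, so how their reads were divided is uncertain.

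**Figure D4:**
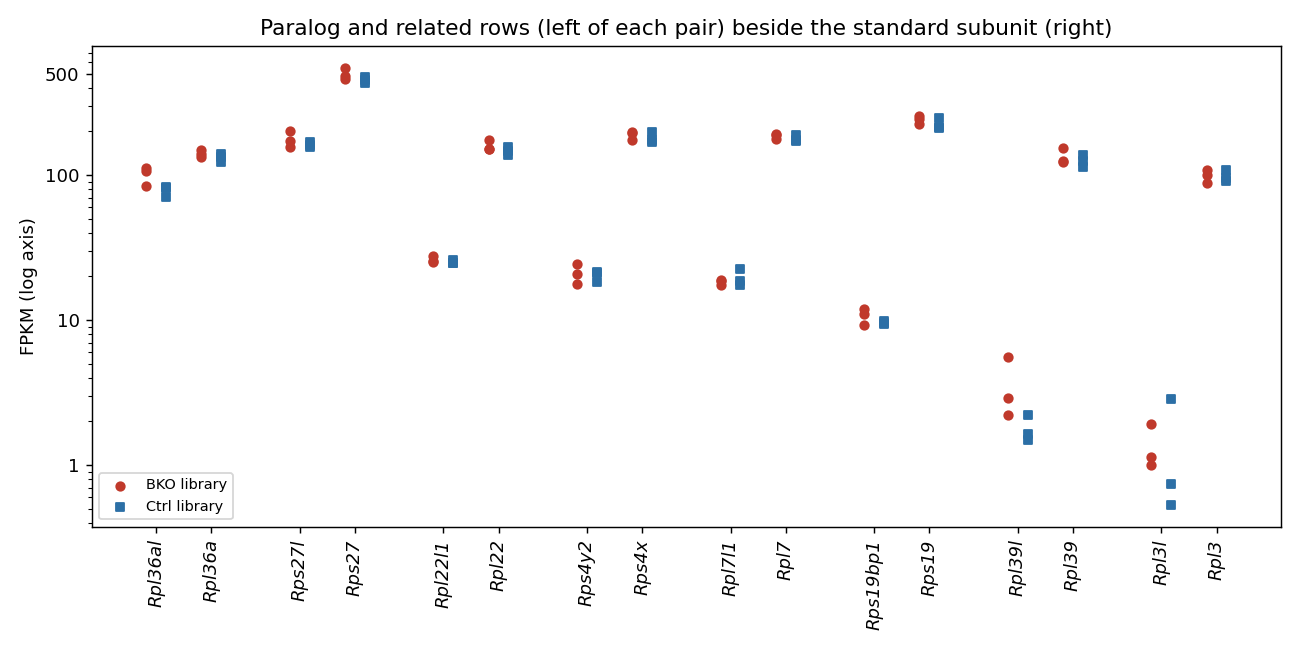
FPKM (log axis) of each paralog or related row, left in each pair, beside its standard subunit, right, in the 3 BKO and 3 Ctrl libraries. Rpl36al lies closest to its partner at 65.6% of its level, and Rpl3l farthest at 1.38%.

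Rpl39l and Rpl36al had the largest differences of the 84 genes on the log2 scale. Rpl39l had 5.58, 2.91 and 2.21 FPKM in BKO, against 1.48, 2.22 and 1.65 FPKM in Ctrl. BKO-1 stood well above the rest, and BKO-3 lay just below Ctrl-2. The means were 3.57 ± 1.78 FPKM in BKO and 1.78 ± 0.389 FPKM in Ctrl (SD, n = 3 each), a ratio of 2.001 and a log2 difference of 0.66 (SE 0.256, 95% interval 0.06 to 1.26, limma adjusted p = 0.450). Without BKO-1 the log2 difference was 0.36. Its standard partner Rpl39, at the peptide tunnel, had 125, 153 and 124 FPKM in BKO, against 137, 125 and 114 FPKM in Ctrl (limma adjusted p = 0.838).

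Rpl36al had 106, 112 and 83.9 FPKM in BKO, against 83.0, 70.6 and 81.1 FPKM in Ctrl. The groups did not overlap, though BKO-3 and Ctrl-1 were close. The log2 difference was 0.35 (SE 0.121, 95% interval 0.07 to 0.63, limma adjusted p = 0.411). Rpl36a had 134, 148 and 140.4 FPKM in BKO, against 140.2, 123 and 132 FPKM in Ctrl, with a log2 difference of 0.10 (limma adjusted p = 0.720).

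Rpl3l varied widely between libraries of the same group. It had 1.13, 1.91 and 1.002 FPKM in BKO, against 2.86, 0.532 and 0.743 FPKM in Ctrl, and was highest in Ctrl-1 and next in BKO-2, the 2 libraries with the highest skeletal muscle markers. The means were 1.35 ± 0.490 FPKM in BKO and 1.38 ± 1.29 FPKM in Ctrl. The ratio of means was 0.976, whereas the log2 difference was 0.09 (95% interval -0.72 to 0.90, limma adjusted p = 0.961), so the sign depends on the scale. Rpl3, its standard partner, had 98.9 ± 9.91 FPKM in BKO and 98.1 ± 8.59 FPKM in Ctrl.

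The remaining rows of this kind differed little. Rpl22l1 averaged 26.2 ± 1.28 FPKM in BKO and 25.1 ± 0.750 FPKM in Ctrl. Rpl7l1 had 17.5, 18.8 and 18.6 FPKM in BKO, against 17.5, 18.7 and 22.4 FPKM in Ctrl, a log2 difference of -0.08 (limma adjusted p = 0.829). Ctrl-3 was the highest library, and without it the difference was 0.015. Rps27l, a target of p53, averaged 176 ± 22.3 FPKM in BKO and 162 ± 5.27 FPKM in Ctrl. Rps4y2 averaged 21.0 ± 3.29 FPKM in BKO and 20.2 ± 1.71 FPKM in Ctrl, and Rps19bp1 10.8 ± 1.42 FPKM in BKO and 9.59 ± 0.209 FPKM in Ctrl. The adjusted p of these 4 genes other than Rpl7l1 lay between 0.684 and 0.934 (limma).

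The neighbouring steps of translation were set beside the family. Fau, a gene outside the naming rule that encodes a small subunit protein fused to a ubiquitin-like peptide, had 149.9, 172 and 155 FPKM in BKO, against 159, 131 and 136 FPKM in Ctrl. BKO-2 was again the highest library and the groups overlapped (log2 difference 0.17, limma adjusted p = 0.612). Translation factors were positive in 28 of 56 tested, with a median of -0.01, 2 genes higher and 1 lower at an unadjusted p below 0.05. Eef2, the translocation factor, averaged 318 ± 19.1 FPKM in BKO and 308 ± 23.7 FPKM in Ctrl. Ribosome biogenesis factors were positive in 49 of 81 with a median of 0.01, and 3 were higher and 0 lower without adjustment. Other mRNAs with a TOP start were positive in 14 of 21, with a median of 0.03 and 1 higher without adjustment. No gene of these lists passed the adjusted threshold.

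Short nuclear genes of the respiratory chain were positive in 41 of 54 with a median of 0.06, and 2 were higher without adjustment. They were the more abundant mRNAs, summing to 40265 to 47077.5 FPKM in BKO and 40427 to 42596 FPKM in Ctrl. The 84 ribosomal protein genes summed to 15612 to 18067 FPKM in BKO and 14450 to 16300 FPKM in Ctrl. The lengths of the 2 lists were not compared. The median deviation of the respiratory chain list by library was -0.02, 0.17 and -0.08 in BKO, against 0.03, -0.06 and -0.06 in Ctrl, with BKO-2 highest as in the ribosomal protein family. Translation factors deviated by -0.04, 0.06 and 0.02 in BKO, against 0.05, -0.06 and -0.00 in Ctrl. Within the ribosomal protein family, Spearman's rho between coding length and the log2 difference was -0.34 across 83 genes, and the median difference was 0.12 below 450 nt and 0.10 from 450 nt up. The part of transcript length in the difference was not tested.

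**Figure D5:**
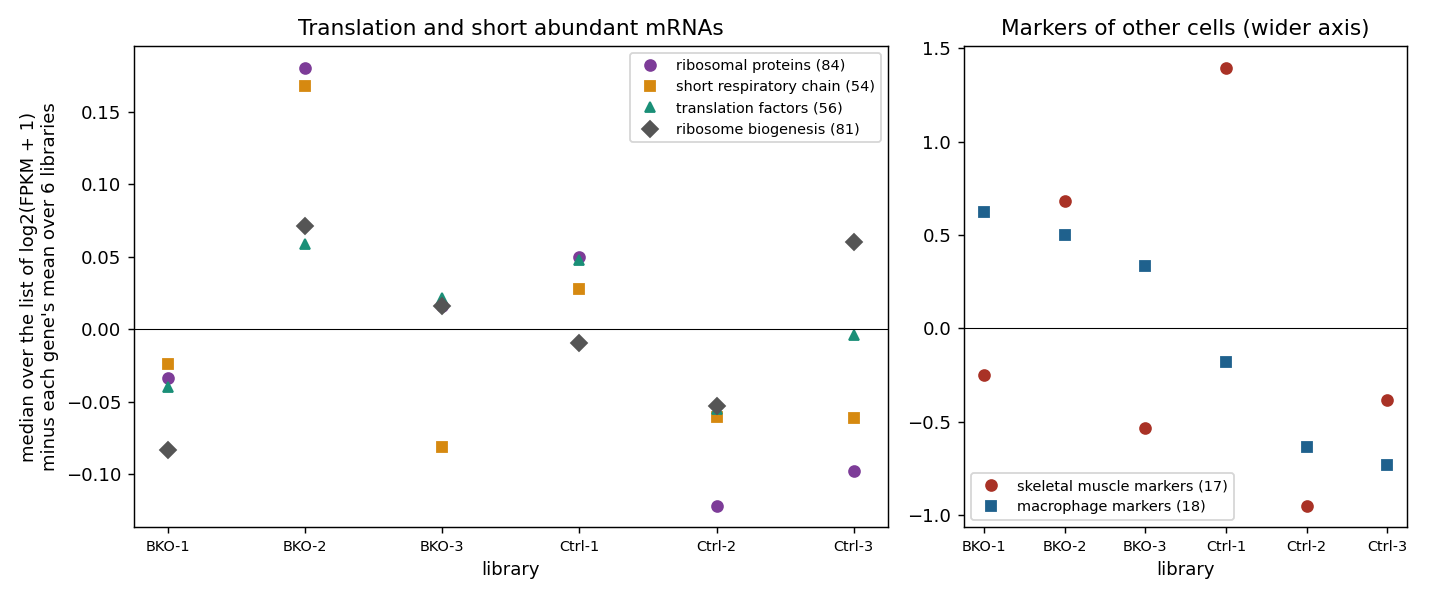
Median deviation of each gene list from its genes' means, log2(FPKM + 1), in the 3 BKO and 3 Ctrl libraries, with translation and respiratory chain lists on the left and markers of other cells on the right on a wider axis. The ribosomal proteins and the short respiratory chain genes both peak in BKO-2, at 0.18 and 0.17.

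The marker lists moved in other ways. Of 18 tested macrophage markers, 18 were positive and 5 passed the adjusted threshold, with a median log2 difference of 1.002, and their median deviation was highest in BKO-1 at 0.62, not in BKO-2. Lyz2, which encodes lysozyme, averaged 84.2 ± 10.5 FPKM in BKO and 23.8 ± 6.20 FPKM in Ctrl (limma adjusted p = 0.0195). Preadipocyte and fibroblast markers were positive in 12 of 12 with a median of 0.39, and 0 passed the adjusted threshold. Skeletal muscle markers had a median of -0.01, endothelial markers -0.01, brown adipocyte markers 0.07, erythroid markers -0.14 and the 2 tested lymphocyte markers 0.53. The part of a changed cell mixture in the ribosomal protein values was not tested.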

How the data were processed

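Brown adipose tissue RNA was extracted with Trizol and made into libraries with a TruSeq RNA kit, per the labels' protocols. The submitters' processing notes name build NCBIM37, Cufflinks 2.2.1, TopHat2 2.0.12 and CASAVA 1.8. Not given in the sources used here: their settings and gene models. FPKM per gene are what the authors deposited. These are not counts, so depth is unknown and no count model was used. Columns were mapped through the descriptions in the labels, which call the BKO libraries WT and the Ctrl libraries MT. The listing holds no value between 0 and 0.486 FPKM in BKO-3, so it may have been filtered on that library.

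Values were taken as log2(FPKM + 1), which understates the change of low genes. The 11397 genes averaging 1 FPKM or more were tested with limma 3.58.1 (R 4.3.3, lmFit and eBayes with trend), Benjamini-Hochberg adjusted over all of them at 0.05. Unless another scale is named, log2 differences are from this fit and ratios are of mean FPKM. The steps were tested on simulated data with 200 changed genes. Symbols were matched to RefSeq for 84 of 84 members, and coding lengths to GENCODE vM21 for 83.

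Members and gene lists were chosen with earlier results of these data known. The genes named are the 6 most abundant, the 5 largest positive and 5 negative differences, the paralogs with their partners, and a set given whatever their values (stalk proteins, Rpsa, Rps6, Rps19, Rpl5, Rpl11). Rpl13a was also planned for that set but is not among the genes listed. Rpl23a, Rpl34, Rps12, Rpl27, Rps20, Ckm and Ucp1 were added after their values were seen. Of the other lists, Fau, Eef2 and Lyz2 are examples taken by level or call, and 1 gene is not reported here. Lists got no test of their own. Alternatives were other pseudocounts, filters, scalings, no trend, a replicate block, library weights, the muscle marker score as a covariate, a threshold of 0.1, and leaving out each library. Leaving out BKO-2 and Ctrl-1 together, and scaling to the same summed ribosomal protein level, were chosen after seeing the data.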

Additional observations from a re-analysis of the deposited data

How the results depend on the processing

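No ribosomal protein mRNA was called in any setting, and the smallest adjusted p of a member over the alternatives was 0.104, for Rpl38 with library weights. The count of members with an unadjusted limma p below 0.05 was unstable. It was 8 in the main fit, 0 after scaling to the same total, 2 without BKO-2 and 17 without Ctrl-1. The family's median log2 difference of 0.11 stayed between 0.05 and 0.16 when each library was left out in turn, and between 0.07 and 0.14 under the other settings except 2 scalings. It was -0.0812 after scaling to the same total, with 13 of 84 members positive, and -0.012 after scaling to the same summed ribosomal protein level, with 34 positive. All genes shifted there too, to medians of -0.15 and -0.10. The second scaling equalises the summed level of these same 84 genes, so it removes the family's shared difference by construction.

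Over all genes, 18 were called higher in BKO. That count was 11 without a filter, 9 with a filter at 5 FPKM, 35 after scaling to the same total, 48 with library weights, 9 with the muscle covariate, 33 at a threshold of 0.1 and 11 after scaling to the ribosomal protein level. Leaving out each library gave 5 to 30. Against 1 called lower, there were 10 after scaling to the same total, 6 with library weights, 2 with the replicate block, 2 without BKO-2 and Ctrl-1, and 1 to 3 leaving out each library. Same-numbered libraries deviated together with correlations of 0.20, -0.10 and -0.10. These few values, with no comparison to other pairs, cannot decide whether the replicate numbers pair the samples. With the replicate block 0 members were called and the family's median was 0.11.

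Signs of single genes are given for the 33 named ribosomal protein genes. Scaling to the same total raised the standard error of Rps29 from 0.0861 to 0.512 and that of Rpl38 from 0.0809 to 0.518. Each difference printed below for that scaling is smaller than its standard error, so its sign is poorly determined. After scaling to the same total, the log2 difference turned negative for Rps29 (-0.0797), Rplp1 (-0.0335), Rps27 (-0.0683), Rps24 (-0.131), Rpl41 (-0.0519), Rplp2 (-0.0325), Rpl22l1 (-0.129), Rps4y2 (-0.134), Rps27l (-0.0851), Rps19bp1 (-0.0222), Rpsa (-0.0692), Rps6 (-0.085), Rps19 (-0.0926), Rpl5 (-0.0828), Rpl11 (-0.101), Rpl39 (-0.105), Rpl36a (-0.0983), Rpl7 (-0.146), Rpl3 (-0.183), Rpl22 (-0.0735) and Rps4x (-0.126). The differences of Rpl38, Rpl10, Rps21 and Rpl36al were then 0.110, 0.108, 0.116 and 0.159, and after scaling to the same summed ribosomal protein level 0.180, 0.177, 0.186 and 0.226. With that scaling the log2 difference turned negative for Rps29 (-0.00928), Rps24 (-0.0603), Rpl22l1 (-0.0654), Rps4y2 (-0.0741), Rps27l (-0.0159), Rpsa (-0.000192), Rps6 (-0.0158), Rps19 (-0.0229), Rpl5 (-0.0141), Rpl11 (-0.0309), Rpl39 (-0.0362), Rpl36a (-0.029), Rpl7 (-0.0763), Rpl3 (-0.114), Rpl22 (-0.00415) and Rps4x (-0.0564). Since that scaling removes the family's shared difference, its signs are relative to the family's own sum. Quantile normalization left 70 of the 84 members positive, against 79, and among the named genes turned Rpl7 to -0.00531 and Rpl3 to -0.00971. Library weights turned Rpl31 to 0.0104. Leaving out each library in turn left 66 (without BKO-2) to 80 of the 84 members positive, and changed a sign in 8 of the 33 named genes, with log2 differences of -0.0891 to 0.0374 for Rpl9, -0.0731 to 0.0793 for Rpl31, -0.0606 to 0.157 for Rps4y2, -0.00109 to 0.118 for Rps24, -0.165 to 0.502 for Rpl3l, -0.0108 to 0.155 for Rpl39, -0.0552 to 0.0884 for Rpl3 and -0.153 to 0.0151 for Rpl7l1.

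The causes were not tested. In the main fit, with 3 libraries a group, standard errors of the standard subunits ran from 0.0710 to 0.130 on the log2 scale. No 95% interval among them reached beyond -0.31 or 0.62 in that fit. The read depth behind each value is unknown.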
